A study of Homo sapiens with 6 samples.

Results

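Genome-wide binding of the glucocorticoid receptor (GR) was compared between cells given dexamethasone and cells given vehicle in a stable human line named the GR cell. The line was made from U-2OS, an established osteosarcoma line, and the labels do not say whether it is a single clone. Of the 6 samples of the series, 2 entered the comparison, each a GR immunoprecipitation followed by sequencing (ChIP-seq) with 3 numbered peak lists: GR cells with DMSO as vehicle, and GR cells with 100 nM dexamethasone, a synthetic glucocorticoid, for 2 hr. Both samples share the line and the antibody against GR. The other samples are the same pair of treatments in a second U-2OS line, the MR/GR cell, which by its name also carries the mineralocorticoid receptor, and the input DNA of each line.

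GR belongs to the steroid receptor family of ligand-activated transcription factors. Without hormone it is held largely in the cytoplasm by chaperone proteins, and hormone binding lets it enter the nucleus, where it binds glucocorticoid response elements, often far from the genes it controls, and recruits coactivators or corepressors. U-2OS cells have little GR of their own, which is why they are often used as hosts for introduced receptors.

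The members of the comparison were the 588 vehicle peaks and 94753 dexamethasone peaks of these 6 lists. Peaks overlapping by at least 1 bp were merged into 41603 sites, against 43893 sites when all 12 lists of the series were merged. A site counted as held by a treatment when it was called in at least 2 of that treatment's 3 lists. Lists give positions in the hg19 build without heights, so a site is either listed or not, and read depth is unknown. Whether the 3 lists of a treatment came from separate cultures is not stated in the labels, and the p-values therefore reflect variation among lists, which may be technical. No gene is given for any position because no annotation of hg19 was used here.

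GR was called at far more positions with dexamethasone than with vehicle. The vehicle lists held 122, 238 and 228 peaks, and the dexamethasone lists held 37650, 30912 and 26191. The treatments did not overlap in list length, and lists of a treatment differed far less than the treatments did. The difference was 7.37 on the log2(peaks + 1) scale (SE 0.34, n = 3 lists each), with p = 0.1 in a two-sided exact permutation test, the smallest p that 3 lists against 3 allow. Covered sequence went from 0.0361, 0.0838 and 0.0798 Mb with vehicle to 13.3, 11.3 and 11.1 Mb with dexamethasone, a 191-fold difference. In log2 units this was 7.58 (SE 0.40), also with exact permutation p = 0.1.

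**Figure D1:**
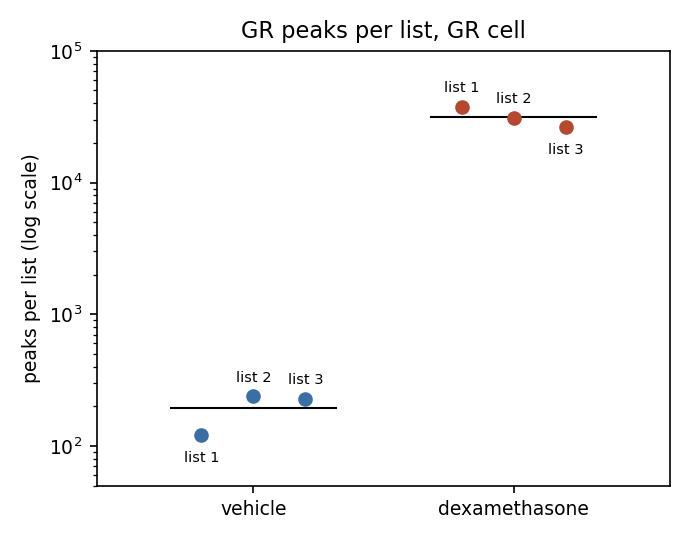
Peaks in each of the 6 GR-cell lists on a logarithmic axis, with vehicle in blue, dexamethasone in red and a black line at the mean of each treatment. The vehicle lists lie between 122 and 238 peaks and the dexamethasone lists between 26191 and 37650.

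Peaks were of 1 width within each list apart from a single peak, so width belongs to the list and not to the peak. It was 296, 352 and 350 bp in the vehicle lists and 354, 366 and 424 bp in the dexamethasone lists. The lists did not overlap in width, and the mean difference was 48.7 bp (SE 28.3, exact permutation p = 0.1, two-sided). It was 27.3 bp without dexamethasone list 3, the widest, and 30.3 bp without vehicle list 1, the narrowest. Wider peaks overlap more easily. Site counts were also made by matching peak centres within 100 bp, with the values in the closing section. That rule is stricter than overlap in every list, so the part of width in the counts was not measured separately.

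Ligand-induced sites, held by at least 2 dexamethasone lists and listed in no vehicle list, numbered 30138, or 72.4% of the 41603 sites. They made up nearly all of the 30365 sites held with dexamethasone, since 227 of those had a peak in any vehicle list. All 3 dexamethasone lists shared 22789 of the induced sites, and 7349 were in 2 lists. A further 10991 sites were in 1 dexamethasone list and no vehicle list. Of these, 7770 (70.7%) came from list 1, the longest, 2345 (21.3%) from list 2 and 876 (7.97%) from list 3, the shortest. Sites in 1 list alone had another dexamethasone site within 10 kb in 27.7% of cases, against 30.9% for sites in all 3 lists.

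Where all 3 dexamethasone lists called an induced site, their peak centres mostly lay within 100 bp of one another. The median distance between the peak centres of a pair of lists was 25 to 28 bp over the 3 pairs, and 5.02% to 6.41% of the distances exceeded 100 bp. The medians are small beside the peak widths of 354 to 424 bp. Sites were merged from overlapping peaks, which limits these distances beforehand.

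Many of the peaks called without ligand were called again with it. Of the 122, 238 and 228 vehicle peaks, 61.5%, 51.7% and 53.9% lay at sites held with dexamethasone, a mean of 55.7% ± 5.13 (SD, n = 3 lists). The share was 56.6%, 44.1% and 45.2% when centres had to lie within 100 bp. It averaged 39.5%, 47.4% and 46.0% without dexamethasone lists 1, 2 and 3, with a site then required in both remaining lists. With a peak in any 1 dexamethasone list as the criterion, the shares were 77.9%, 66.4% and 79.4%. The vehicle lists matched one another less often than they matched the dexamethasone lists. Peaks of vehicle list 1 were found in vehicle lists 2 and 3 in 31.1% and 41.8% of cases. The corresponding shares were 16.0% and 20.6% for peaks of list 2 in lists 1 and 3, and 22.4% and 21.5% for peaks of list 3 in lists 1 and 2. These directions are not comparable in length of target, since a dexamethasone list covers at least 11.1 Mb and a vehicle list at most 0.0838 Mb.

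Persistence was higher for sites that more vehicle lists had called. Of 474 sites with a vehicle peak, 384 were in 1 vehicle list, 66 in 2 and 24 in all 3. Dexamethasone held 40.1% of the sites in 1 list (154 of 384, Wilson 95% interval 35.3 to 45.1). It held 78.8% of those in 2 lists (52 of 66, 67.5 to 86.9) and 87.5% of those in 3 lists (21 of 24, 69.0 to 95.7). No dexamethasone peak was listed at 37.5%, 7.58% and 0% of them in the same order, and the last value is 0 of 24, with a Wilson upper bound of 13.8%. These intervals reflect counting error alone. The intervals of the 1-list class and the 2-list class did not overlap, while those of the 2-list and 3-list classes did.

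**Figure D2:**
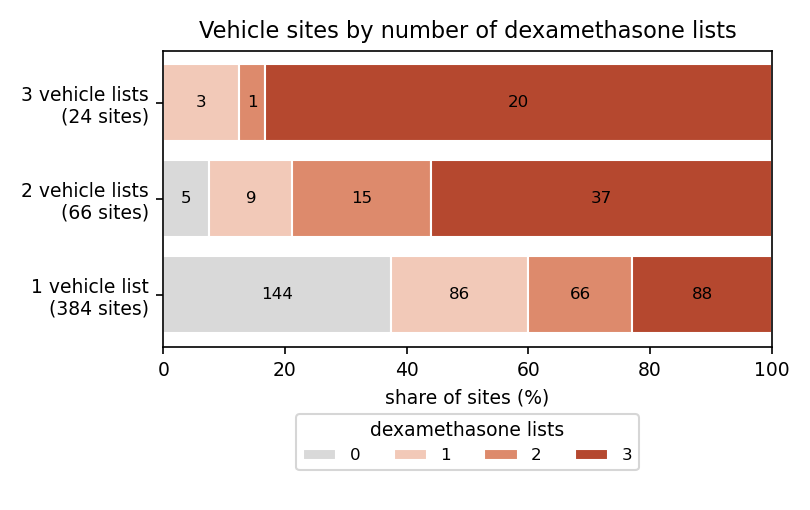
Share of GR-cell vehicle sites, by the number of vehicle lists that called them (rows), that were called in 0, 1, 2 or 3 dexamethasone lists (grey to dark red), with numbers of sites in the bars. The share in all 3 dexamethasone lists is 22.9% for sites of 1 vehicle list, 56.1% for 2 and 83.3% for 3.

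Taking vehicle sites as those in at least 2 of 3 vehicle lists gave 90 sites, of which 73 were held with dexamethasone (81.1%, Wilson 95% interval 71.8 to 87.9), or 0.175% of all 41603 sites. Of the 73, 57 were in all 3 dexamethasone lists. With a site required in both remaining vehicle lists, the count of 73 was 38 without vehicle list 1, 43 without list 2 and 34 without list 3. Another 12 vehicle sites were in 1 dexamethasone list, and in all 12 cases that was list 1. The same held for 79 (91.9%) of the 86 sites in 1 vehicle list and 1 dexamethasone list, beside the 70.7% of list 1 among single-list sites with no vehicle peak.

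At 20 sites a peak was called in all 6 lists. Their leading members, ranked by dexamethasone peaks within 10 kb and then by position (hg19, counted from 1), were chr11:118306787-118307285, with 5 such peaks, then chr19:41731815-41732263 and chr19:48246278-48246968, with 4 each. The rest of the first 10 had 3 such peaks, 1 from each list. They were chr1:42800824-42801295 and chr1:183441028-183441545, chr2:200820098-200820643, chr3:119395796-119396259 and chr3:128879918-128880345, and chr6:35227199-35227696 and chr6:79787844-79788372. Among these 10, the site chr3:119395796-119396259 was also in all 3 vehicle and all 3 dexamethasone lists of the MR/GR cell. Of the 24 sites in all 3 vehicle lists, 4 were not in all 3 dexamethasone lists. The site chr22:19466789-19467188 was in dexamethasone lists 1 and 2, and 3 others were in list 1 only, among them chr3:156892581-156893139.

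Sites that vanished, in at least 2 vehicle lists and in no dexamethasone list, numbered 5, or 0.012% of all sites. None was in all 3 vehicle lists, and none was in any list of the MR/GR cell. They were chr4:152682007-152682372, chr11:34126954-34127315 and chr11:66206185-66206536, chr12:123574290-123574700, and chr17:74481037-74481441. In the chromosome 17 case a dexamethasone site lay 0.708 kb away, centre to centre, and for the second chromosome 11 site 1.58 kb away, each with 3 dexamethasone peaks within 10 kb. The smallest distance between peaks of dexamethasone lists 1, 2 and 3 was 699, 687 and 811 bp. A separate peak at the chromosome 17 site could therefore hardly be listed beside its neighbour, and its absence cannot be read as loss. For the other 3 the nearest dexamethasone site was 41.6 kb (chromosome 4), 115 kb (chromosome 11) and 59.4 kb (chromosome 12) away. The count was 17 without dexamethasone list 1, the longest list, and 3, 1 and 1 without vehicle lists 1, 2 and 3.

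The alignment of vehicle peaks with dexamethasone peaks at the same site differed between vehicle lists and classes of site. At the 20 sites called in all 6 lists, the median distance between centres was 21 to 41 bp for the 3 pairs of dexamethasone lists, 30.5 to 67 bp for the 9 pairs of a vehicle and a dexamethasone list, and 44.5 to 86.5 bp for the 3 pairs of vehicle lists. At the 57 sites in at least 2 vehicle lists and 3 dexamethasone lists, the medians of vehicle list 1 to the dexamethasone lists were 37, 43 and 40.5 bp, within the 21 to 45 bp of the dexamethasone pairs. Those of vehicle list 2 were 69, 74 and 50 bp and those of list 3 were 64, 67 and 44 bp. At the 88 sites in 1 vehicle list and 3 dexamethasone lists, the vehicle peak lay a median of 65 to 106.5 bp from the dexamethasone peaks, and 30% to 50% of these distances exceeded 100 bp. The ends of both ranges came from vehicle list 1, which had 10 of these sites. Vehicle list 2 (45 sites) gave medians of 77, 97 and 85 bp, and list 3 (33 sites) gave 75, 69 and 74 bp. The dexamethasone peaks at the 88 sites were 36 to 39 bp apart. These medians were chosen after the data were seen and were not tested.

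Distances between neighbouring dexamethasone sites were uneven, with many short ones. Between neighbouring site centres the median was 47.4 kb and the mean 97.0 kb, a ratio of 0.489, and the 10th to 90th percentiles ran from 6.18 to 230 kb. Distances up to 10 kb made up 16.98% of all, and 70.4% were up to 100 kb. By list the median distance between neighbouring peaks was 38.6, 46.7 and 55.8 kb, in the order of list length. A neighbour within 10 kb was present for 35.1%, 30.9% and 26.1% of the dexamethasone peaks and for 0%, 0% and 0.877% of the vehicle peaks, whose lists are far shorter. The smallest distance between peaks of a list was 699, 687 and 811 bp.

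The distribution of distances between neighbours had a step at 5 kb in each dexamethasone list. From 4 to 5 kb there were 584, 416 and 249 pairs of neighbours, and from 5 to 6 kb there were 936, 681 and 518. The ratio was 1.603, 1.64 and 2.08, while from 5 to 6 kb to 6 to 7 kb it was between 0.902 and 0.979, and from 3 to 4 kb to 4 to 5 kb between 0.827 and 0.876. A second rise stood at the short end, with 1032, 763 and 504 pairs from 1 to 2 kb. In the MR/GR cell with dexamethasone, the ratio at 5 kb was 0.70 in list 1 (30 and 21 pairs), 1.68 in list 2 (105 and 176 pairs) and 1.35 in list 3 (46 and 62 pairs). The step was noticed after the data were seen. The calling settings are not given in the sources used here, and whether they set the step was not tested.

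**Figure D3:**
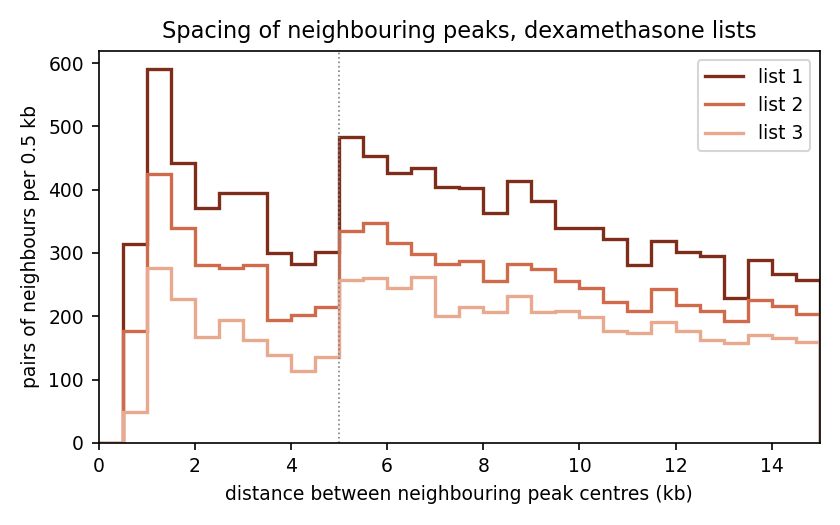
Pairs of neighbouring peaks by the distance between their centres, in bins of 0.5 kb from 0 to 15 kb, for the 3 GR-cell dexamethasone lists, with a dotted line at 5 kb. Each list rises between 4 to 5 kb and 5 to 6 kb, from 584 to 936, from 416 to 681 and from 249 to 518 pairs.

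Clusters, defined as runs of at least 3 dexamethasone sites with neighbouring centres at most 10 kb apart, numbered 764 and held 2558 sites, 8.42% of the 30365. Most sites, 21099 (69.5%), had no other within 10 kb, and 6708 (22.1%) stood in pairs. Of the clusters, 582 had 3 sites, 126 had 4, 38 had 5, 13 had 6, 2 had 7, 2 had 8 and 1 had 10. Their length ran from 2.52 to 43.4 kb with a median of 12.3 kb. In 339 clusters (44.4%) every site was in all 3 dexamethasone lists. The number of clusters was 424 without dexamethasone list 1 and 474 without list 2, with a site then required in both remaining lists. At 10 kb the definition takes in the region above the 5 kb step, and with 5 kb in its place 124 clusters remained.

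The leading cluster, by sites in all 3 dexamethasone lists, was chr2:28819596-28863029. It held 10 sites over 43.4 kb, each called in all 3 dexamethasone lists, with a median spacing of 5.37 kb and no vehicle peak. Its sites began at 28819596, 28825743, 28833174, 28836870, 28838593, 28844321, 28849698, 28856752, 28858067 and 28862592. In the MR/GR cell with dexamethasone, 5, 6 and 4 of the 10 were called in lists 1, 2 and 3.

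The second, chr3:156817008-156847888, had 8 sites with 8, 8 and 7 peaks in the dexamethasone lists. The third, chr19:18740620-18782536, had 8 sites with 8, 7 and 7 peaks. The fourth, chr11:114020727-114050343, had 7 sites with 7, 7 and 6 peaks, and 6 of them were called in every MR/GR-cell dexamethasone list. By contrast, the chromosome 3 cluster had 0, 1 and 1 of its 8 sites in those lists. Clusters of 6 sites filled ranks 5 to 10: chr5:66544502-66564414, chr17:80220253-80243468, chr3:64312711-64338678, chr6:35678145-35700042 and chr6:129438535-129463135, and chr20:49032119-49068031. Those on chromosomes 5 and 17 had all 6 sites in every dexamethasone list, and the others had 5 of 6.

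Of the 10 leading clusters, 9 had no vehicle peak, as had 758 of all 764 clusters. The exception was the cluster chr6:35678145-35700042. A vehicle peak in 2 of 3 vehicle lists lay at its site chr6:35695681-35696104 and in 1 list at its last site, chr6:35699545-35700042. Over the 6 sites the vehicle lists had 1, 0 and 2 peaks, against 6, 6 and 5 in the dexamethasone lists.

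**Figure D4:**
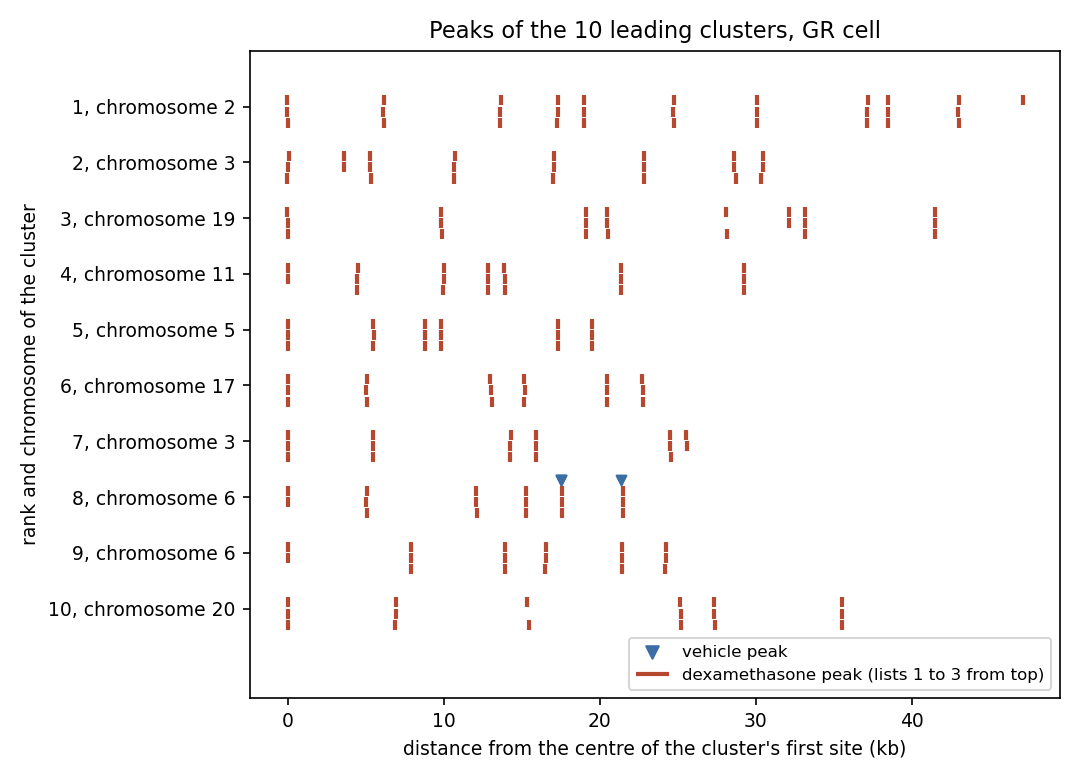
Peaks of the 10 leading clusters by distance from the centre of the first site in kb, with red ticks for dexamethasone lists 1 to 3 from top to bottom of each row and blue triangles for vehicle peaks. The ticks of the 3 lists line up at most sites, and vehicle peaks appear in the cluster of rank 8 only; the tick at 47.1 kb in the first row is a peak of list 1 alone, outside the cluster.

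Vehicle peaks were listed at a smaller share of clustered than of isolated dexamethasone sites. Of the 764 clusters, 6 (0.785%) held a vehicle peak, on chromosomes 1, 6, 8, 12, 14 and 17. A peak of vehicle lists 1, 2 and 3 lay at 0.332%, 0.507% and 0.517% of isolated sites and at 0.117%, 0.117% and 0.156% of clustered sites. The clustered minus isolated difference was -0.21, -0.39 and -0.36 percentage points, lower in clusters in each list, and an exact sign-flip test over the 3 lists gave p = 0.25 (two-sided), the smallest that 3 lists allow. With a 5 kb definition of clusters the mean difference shrank from -0.32 to -0.13 points (exact p = 0.75). The clustered shares rest on 3, 3 and 4 sites. This comparison was added after the data were seen.

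Put as distances, dexamethasone sites with a vehicle peak lay farther from other dexamethasone sites. Clusters are defined by these same distances, so this restates the comparison of clustered and isolated sites and is not separate support. The nearest other dexamethasone site lay a median of 20.9 kb from an induced site, 39.8 kb from a dexamethasone site with a vehicle peak and 51.4 kb from a kept vehicle site. Separately for the dexamethasone sites called in vehicle lists 1, 2 and 3, the medians were 51.4, 40.2 and 41.4 kb. Another site lay within 10 kb of 30.7% of induced sites and of 8.22% of kept vehicle sites. For the 149 sites with a vehicle peak and no dexamethasone peak, the median was 29.5 kb. Of these, 23 (15.4%) had a dexamethasone site within 5 kb, near the 14.4% of induced sites with another so close.

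The MR/GR-cell dexamethasone lists, which took no part in defining sites or clusters, held clustered sites more often than isolated ones. Isolated sites were called in 9.99%, 23.3% and 17.9% of cases in MR/GR lists 1, 2 and 3, and clustered sites in 18.6%, 34.7% and 27.1%. The difference was 9.69 percentage points (SD 1.45 over the 3 lists), positive in each list, with p = 0.25 in the exact sign-flip test, again the smallest possible. In clusters of at least 5 sites the shares were 25%, 40.6% and 35.1%. The share of sites in all 3 GR-cell dexamethasone lists varied less, from 75.1% of isolated sites to 77.4% of clustered ones. With sites in all 3 GR-cell lists only, the difference was 12.1 points.

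Sites called without ligand in the GR cell were called without ligand in the MR/GR cell more often than induced sites were. Of the 73 kept vehicle sites, 16 (21.9%, Wilson 95% interval 13.97 to 32.7) had a peak in some MR/GR-cell vehicle list. Among the 22789 induced sites in all 3 lists the number was 8 (0.0351%, 0.0178 to 0.0693). In the MR/GR-cell dexamethasone lists the order differed from list to list. Kept vehicle sites were called in 8.22%, 42.5% and 16.4% of cases in lists 1, 2 and 3, and those induced sites in 14.5%, 30.8% and 24.6%. The intervals did not overlap in list 2, where kept sites were higher (31.8 to 53.9 against 30.2 to 31.4), and overlapped in lists 1 and 3, where they were lower. All intervals of this comparison reflect counting error over sites alone and not variation between the lists, so their overlap is no test. In at least 2 of these lists the shares were 16.4% (9.66 to 26.6) and 22.5% (21.96 to 23.05), and in any of them 45.2% (34.3 to 56.6) and 34.2% (33.6 to 34.9), with intervals that overlap in both cases. Kept sites needed at least 2 GR-cell dexamethasone lists and these induced sites all 3, so the shares are not matched. Among sites in all 3, some MR/GR-cell dexamethasone list held 65% (43.3 to 81.9) of the 20 in 3 vehicle lists. The share was 48.6% (33.4 to 64.1) for the 37 in 2 vehicle lists and 50% (39.8 to 60.2) for the 88 in 1. Beside the 34.2% (33.6 to 34.9) of induced sites, the intervals of the 20 and the 88 did not overlap and that of the 37 did. In MR/GR-cell lists 1, 2 and 3 the 20 had 15%, 55% and 30%, and the 37 had 8.11%, 48.6% and 16.2%. The 88 had 20.5%, 48.9% and 27.3%.

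Along the chromosomes, the dexamethasone peaks were spread evenly from list to list, while the vehicle peaks, few in number, were not. The share of peaks on a chromosome was higher with dexamethasone in every list on 11 of 23 chromosomes (47.8%), lower in every list on 7 (30.4%) and overlapping on 5. No chromosome could pass after Benjamini-Hochberg adjustment. The smallest exact permutation p for a chromosome is 0.1, and the smallest adjusted p was 0.128. Because the shares of a list sum to a fixed total, these 18 chromosomes are not separate results.

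Chromosome 19 was the one with the lowest ratio. It carried 1.88%, 1.87% and 1.86% of dexamethasone peaks and 5.74%, 8.86% and 4.39% of vehicle peaks, the latter 7, 21 and 10 peaks. Chromosome 17 followed, with 3.18% ± 0.0665 and 6.92% ± 0.473 (SD, n = 3 lists each). The other chromosomes with lower shares were 1, 11, 12, 16 and 22. In the opposite direction chromosome X had 2.99% ± 0.0880 of dexamethasone peaks and 0.568% ± 0.643 of vehicle peaks, which were 0, 3 and 1 peaks. Chromosomes 4, 5, 7, 8, 9, 10, 13, 14, 18 and 21 were also higher.

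**Figure D5:**
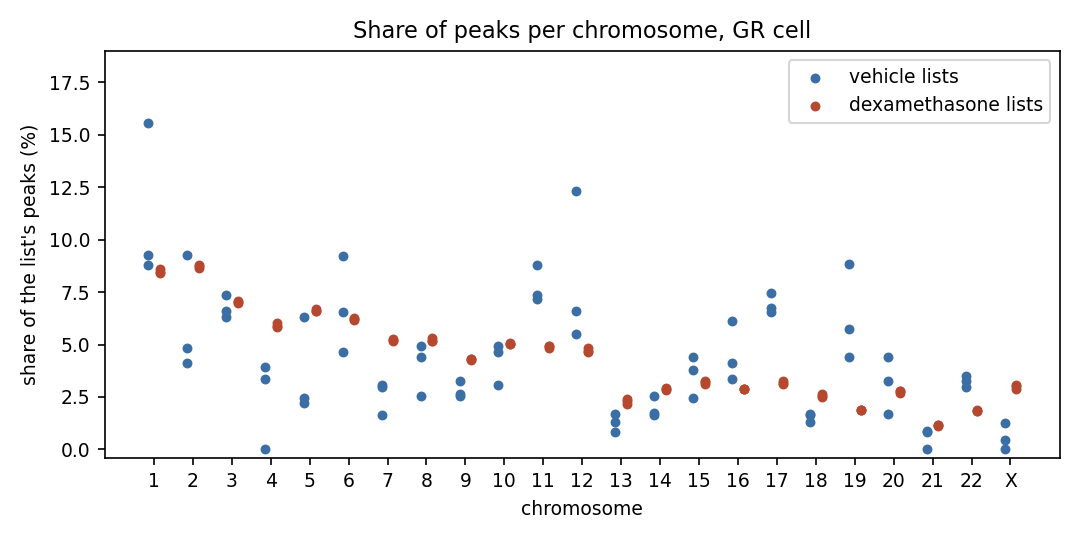
Share of each list's peaks on the numbered chromosomes and X, in percent, with 1 point per list, vehicle in blue and dexamethasone in red. The dexamethasone points of a chromosome nearly coincide, and on chromosomes 17 and 19 all 3 vehicle points lie above them.

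Per length, dexamethasone sites were densest on chromosome 22, with 15.9 sites per Mb between its first and last peak, and chromosome 20 followed with 13.3. Chromosome X had the lowest density at 5.96, then chromosome 13 at 7.22, and the median of the 23 was 10.6. The copy number of these chromosomes in the line is not known here, and its part in these densities was not tested.

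Site density varied between regions. Of 2845 windows of 1 Mb with a dexamethasone site, the median held 10 sites and the quartiles 6 and 14. Windows with at least 20 sites numbered 237 (8.33%) and held 18.2% of all sites. The densest was chr21:46000001-47000000, with 38 sites and 38, 36 and 32 peaks in dexamethasone lists 1, 2 and 3. Next were chr22:49000001-50000000 with 37 sites, chr2:28000001-29000000 with 36, chr5:1000001-2000000 with 35, and chr12:116000001-117000000 with 34. The last place was a tie with chr16:85000001-86000000, also with 34, and was given by coordinate order. Neither these 5 windows nor the tied one held a vehicle peak. With 474 sites holding a vehicle peak beside 2845 windows, most windows hold none. The windows ranked 9 and 10, chr7:157000001-158000000 and chr18:74000001-75000000, had 32 sites each. Vehicle lists 1, 2 and 3 had 0, 1 and 1 peaks in the former and 0, 0 and 1 in the latter. The chromosome 2 window contains the leading cluster of 10 sites.

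Counted from the last peak of each chromosome, the final 2 Mb held 17.6 dexamethasone sites per Mb and the next 3 Mb 15.8. The density was 10.7 from 5 to 10 Mb, 11.2 from 10 to 20 Mb and 9.92 beyond, where centromeres are included. Each list showed the order between the final 2 Mb and the stretch beyond 20 Mb, with 21.1 against 12.4, 18.0 against 10.1 and 14.7 against 8.54 peaks per Mb. The vehicle lists had 0.174, 0.348 and 0.304 peaks per Mb in the final 2 Mb, from 8, 16 and 14 peaks, against 0.0371, 0.0705 and 0.0689 beyond 20 Mb. These zones were chosen after the data were seen.

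At the other extreme stood induced sites far from any other. The site in all 3 dexamethasone lists farthest from any other dexamethasone peak was chr7:61816957-61817526, at 1569 kb from the nearest. It was followed by chr9:47196189-47196674 (1468 kb), chr5:69894004-69894427 (1027 kb), and chrX:35795480-35795903 (829 kb) and chrX:7249098-7249811 (748 kb). The sites on chromosomes 7 and 9 border long stretches with no dexamethasone peak, of 4.40 and 18.4 Mb. Whether peaks can be called in those stretches was not checked. Of these 5 isolated sites the chromosome 9 site was called in all 3 MR/GR-cell dexamethasone lists, and the other 4 in none.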

How the data were processed

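The authors deposited 3 peak lists per immunoprecipitation, each a chromosome, start and end per peak and no score; starts were taken as 0-based and printed counted from 1. The tools named, per the submitters' processing notes, are HOMER 4.8.3, Picard 1.115, Trim Galore 0.4, SAMtools 1.3.1 and Bowtie, with hg19 as the build; their settings, and the input set against each list (the GR-cell input is labelled as given dexamethasone), are not given in the sources used here. Each list was used separately, and list numbers come from the deposited lists. Chromosome shares used the numbered chromosomes and X.

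Peak number was tested as log2(peaks + 1) over 20 arrangements, and differences over 3 lists by 8 sign flips. Named positions were the 10 leading clusters, the 5 densest windows, the 10 leading sites in all 3 vehicle lists, the vanished sites, and the 5 most isolated induced sites. Other features were singled out after their values were seen. The members, lists and rules were chosen with earlier results of these data known. Alternatives covered overlap, lists per site, cluster definition, merged peaks, dropping 1 list at a time and a block by list number. Sequence at sites was not analysed here, for want of an hg19 genome.

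Computations used SciPy 1.17.1, pandas 2.3.3, matplotlib 3.10.9 and numpy 2.4.6 under Python 3.11.15; bedtools 2.31.1 also gave 41603 merged sites. Tested on simulated data of this comparison with 41603 sites, the site classes were right for 100% of sites, and 580 of 583 clustered sites were found. Closely crowded sites were not simulated, and simulated peaks of a site always overlapped. At real sites in 1 vehicle and 3 dexamethasone lists, 30% to 50% of vehicle to dexamethasone centre distances exceeded 100 bp. Recovery of peaks so far apart was not tested.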

Additional observations from a re-analysis of the deposited data

How the results depend on the processing

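There were 99 alternatives over 12 results, and 6 were chosen after seeing the data. Direction was judged for the tested results only, and none of their alternatives reversed it. In 63 a tested result kept its sign and its side of the threshold, or an untested value stayed within its spread or a count within 1.5 times. The side of the threshold could not change, since the smallest p that these lists allow lies above it. Sizes could still move, as for peak width and for the vehicle share of clustered sites at 5 kb. Requiring all 3 lists, or at least 1, gave 20 and 325 kept vehicle sites, 0 and 149 vanished sites, 38.8% and 74.5% of vehicle peaks at dexamethasone sites, median distances of 61.9 and 35.3 kb, clustered shares of 5.89% and 12.9%, and 412 and 1563 clusters. Matching centres within 100 bp in place of overlap gave 29343 induced, 65 kept and 6 vanished sites, and 48.6% of vehicle peaks at dexamethasone sites. A cluster distance of 5 or 20 kb gave 1.26% or 22.4% of sites in 124 or 1861 clusters, and at least 2 or 5 sites per cluster gave 30.5% or 1.01% in 4118 or 56. Leaving out each list gave 34 to 66 kept sites, 1 to 17 vanished sites, 39.5% to 57.5% of vehicle peaks at dexamethasone sites, medians of 51.0 to 60.8 kb, clustered shares of 5.92% to 7.70% and 424 to 647 clusters; a site then had to be in both remaining lists, which lowers most counts by construction.

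With list numbers taken as a replicate block, the mean difference in peak number between same-numbered lists was 7.37 (exact sign-flip p = 0.25, the smallest 3 pairs allow). That mean equals the difference without the block by arithmetic, so only the p-value could change. Over the 474 sites with a vehicle peak, deviations of same-numbered lists correlated at -0.06, 0.02 and -0.09. For lists of different numbers the correlations ran from -0.085 to 0.14. Of these sites 384 are in 1 vehicle list only, so the values cannot exclude pairing. The numbers come from the deposited lists alone and were not taken as pairing. The planned share of peaks wider than the commonest width gave no value, since no peak is wider, and the sequence search was not run. Without read depths, absence of binding and binding under the calling threshold cannot be told apart, and chromosome shares with vehicle rest on few peaks.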

Other observations

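Stretches of over 2 Mb with no dexamethasone peak in any GR-cell list numbered 22, on 19 chromosomes, and held no vehicle peak. Whether their sequence is present in the build was not checked, for want of an hg19 genome, so they cannot be read as regions free of GR. The longest ran from 121319165 to 142562534 on chromosome 1 (21.2 Mb), 47196675 to 65613741 on chromosome 9 (18.4 Mb) and 35191240 to 46465944 on chromosome 16 (11.3 Mb). Sequences outside the assembled chromosomes carried 43 GR-cell sites on 18 sequences. Of these, 19 (44.2%) were in all 3 dexamethasone lists, against 55.1% of sites on the main chromosomes, and none had a vehicle peak.

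Dexamethasone sites less than 1 kb from their nearest neighbour numbered 342 and were in all 3 dexamethasone lists in 55.6% of cases, against 75.3% of those at 1 to 5 kb and 78.8% at 5 to 10 kb. The smallest distance between peaks was 699, 687 and 811 bp in lists 1, 2 and 3, with 314, 177 and 48 pairs of neighbours at 0.5 to 1 kb. Neighbouring sites about that close can hardly share a list, which limits the share under 1 kb beforehand. By list, 11.4%, 8.71% and 6.62% of the dexamethasone peaks lay in clusters.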
